A study of Homo sapiens with 60 samples.

Results

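Mitosis genes encode the proteins with which a cell enters mitosis, builds the spindle, attaches and separates its chromosomes and divides. A set of 46 such genes was taken by symbol from a count table of 60675 genes, measured by RNA sequencing in HepG2, a human liver cancer cell line long grown in culture that retains many traits of hepatocytes. All 46 were found in the table, and all 46 were among the 16675 genes with enough counts to be tested. The rule that chose them names genes and uses no measured value, but the set was drawn up with earlier results of these data known. The cells had been treated for 24 h with an ethanol extract of a herbal material or of a herbal formula, or with DMSO vehicle alone, and the 60 libraries form 25 groups.

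The vehicle group had 3 libraries. Coptidis Rhizoma and Bupleuri Radix were given at 280, 56 and 11.2 µg/mL, with 2 and 3 libraries per dose. The other 6 were given at 500, 100 and 20 µg/mL: Aconiti Lateralis Radix Preparata, Cimicifugae Rhizoma and Citri Unshius Pericarpium with 3 libraries at each dose, Zizyphi Fructus and the formula Yijung-tang with 2, and the formula Banhasasim-tang with 1. The 3 doses are called high, medium and low below. By the dose rule in the labels, the high dose was chosen as the concentration giving 20% growth inhibition if this was below 500 µg/mL, and otherwise as 500 µg/mL. The high doses of Coptidis and Bupleuri were therefore set by growth inhibition, and every extract shared its solvent with the vehicle, stated as 0.1% DMSO in the sample labels and 2% in the series text. Nothing in the labels says that replicates were separate cultures, so a p-value reflects the scatter of these libraries only, and that scatter may be technical. By the sample titles the vehicle libraries form a set apart from all extracts, and in a comparison with vehicle the set and the treatment cannot be told apart. For Coptidis and Zizyphi the titles and the descriptions give different batch letters, and which is right was not settled. The doses of one extract share a set.

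Levels are CPM after TMM scaling, counts relative to the total of the library, which are not corrected for transcript length, so levels are compared only within a gene. Differences are log2 fold changes with their standard error (SE) from edgeR's quasi-likelihood test. A gene was called, and is said to have risen or fallen, at a Benjamini-Hochberg adjusted p under 0.05 over all 16675 genes. In each comparison the share of all tested genes called in the same direction is given as the background. It belongs to the main fit. For counts from other fits, such as those without a library, the share over all genes is not given. Whether a change in such a count is particular to the members therefore cannot be read from it.

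Library totals ran from 18015555 to 29549531 counts. The 8 hepatocyte markers summed to between 25245 and 44972 CPM, with none at 0 in any library. Of 11 markers of other cell types, 8 stayed under 1 CPM in the vehicle libraries and the 11 summed to between 73.9 and 145 CPM over all libraries. Replicate 3 of the Bupleuri low dose stood apart from its 2 sister libraries (chi-square per degree of freedom 99.4 and 94.3, against 2.63 between the sisters), and results that rest on it are given with and without it. Mitochondrial ribosomal RNA took 2.47 to 2.61% of the counts in vehicle, and 11.6 to 11.8%, 10.2 to 11.5% and 5.41 to 5.68% in the low, medium and high dose of Coptidis. Its part in the Coptidis results was not tested.

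Most mitosis genes are transcribed in waves late in the cell cycle. In resting or G1 cells a repressor complex called DREAM sits on many of their promoters, at short elements known as CHR and at CCAAT boxes bound by NF-Y. Later, MYBL2 and the factor FOXM1 take over on the shared MuvB core and transcription rises towards mitosis. A growing culture such as HepG2 therefore carries these transcripts in the part of its cells that are close to division.

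In cells given the high dose of Coptidis Rhizoma, a rhizome rich in the alkaloid berberine, all 46 mitosis genes fell. The fall was at least 2-fold in 43 of them, with a median log2 fold change of -2.24 against 0.00 over all tested genes. At the medium dose all 46 fell again, 34 of them by at least 2-fold, with a median of -1.13. The low dose gave 36 members that fell and 0 that rose, with a median of -0.26. The background of genes called lower was 33% of all tested genes at the high, 24.6% at the medium and 16.1% at the low dose, and the background of called falls of at least 2-fold was 12.7% at the high and 4.02% at the medium dose. Every Coptidis library lay below every vehicle library for 46, 46 and 41 members at the high, medium and low dose, against a background of 39.3%, 32.1% and 28.9%. In bulk RNA, fewer cells close to mitosis and less RNA of these genes per cell cannot be told apart.

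**Figure D1:**
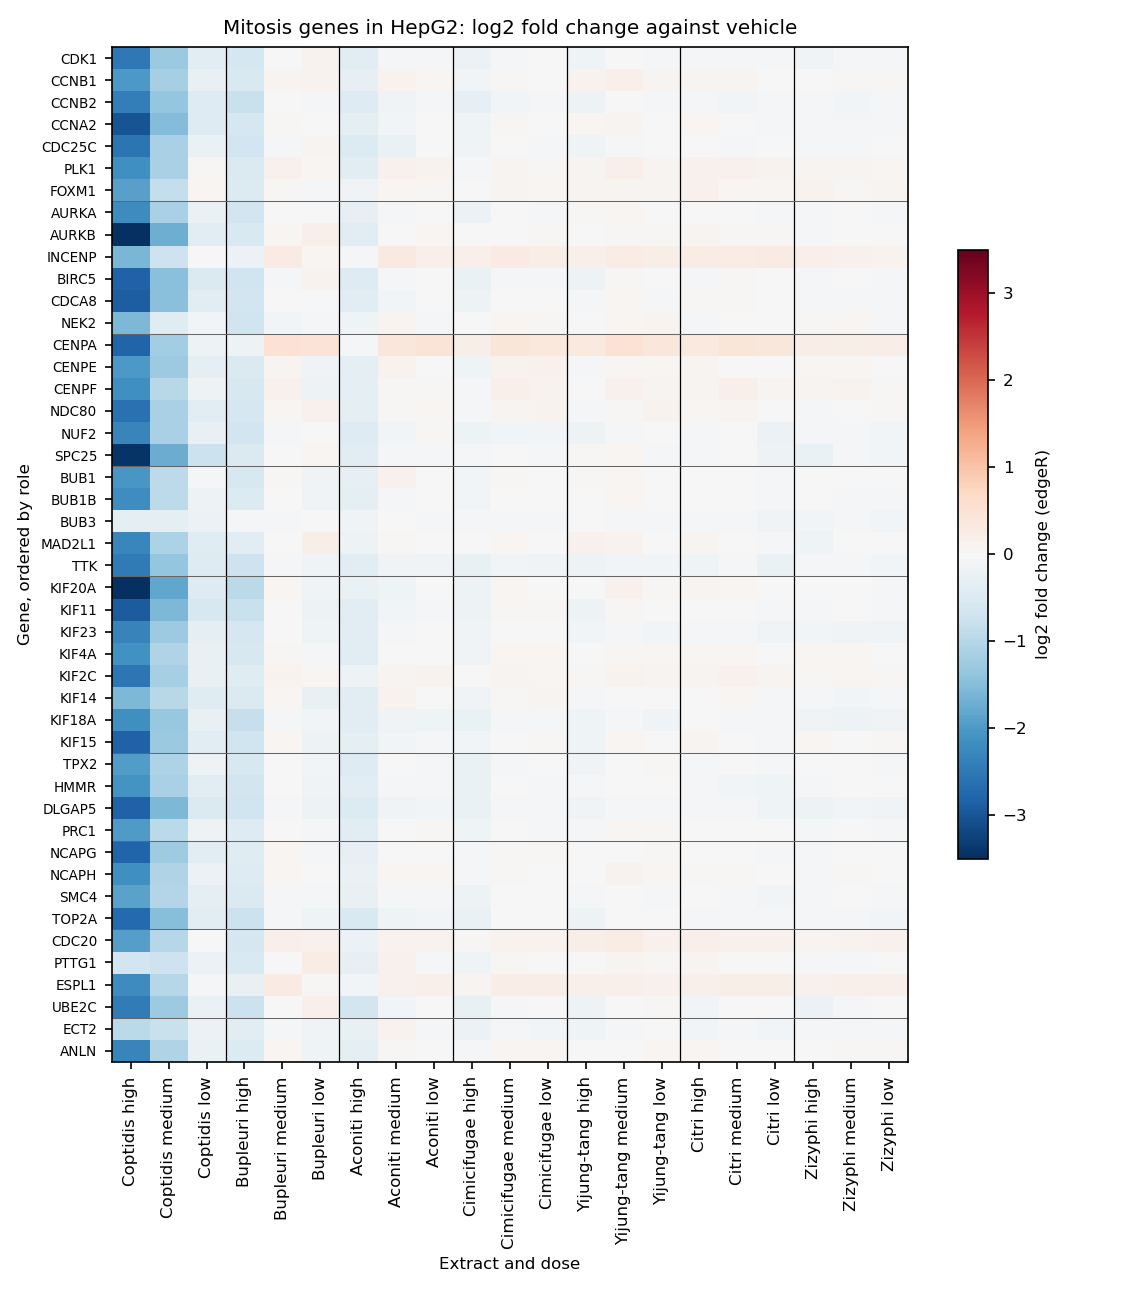
Log2 fold change against vehicle (colour, red higher and blue lower) of the 46 mitosis genes (rows, ordered by role) in 21 extract and dose groups (columns). The Coptidis high and medium columns are lower for every gene, with medians of -2.24 and -1.13, and the high doses of Bupleuri and Aconiti are lower to a smaller extent, with medians of -0.56 and -0.33.

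As the members moved together at these doses, their promoters were read for the elements named above. RefSeq promoters (GRCh38.p14, 250 bases before to 50 after the start) matched 39 of the 46 members, and the first entry of each gene was read. No promoter was read for FOXM1, BUB3, AURKA, UBE2C, TTK, BIRC5 and TPX2. The motif search covered both strands and counted overlapping matches. A CHR (TTTGAA or TTCGAA) occurred in 29 of the 39, or 74.4%, against 16.6% of all 27305 promoters. A CCAAT box (CCAAT) occurred in 29 members as well, or 74.4%, against 35.7%. Both stood in 22 members, or 56.4%, against 6.58%. An E2F site (TTTGGCGC, TTTCGCGC or TTCCCGCC) occurred in 4 members, or 10.3%, against 4.30%. With only the 250 bases before the start, a CHR occurred in 23 members, or 59.0%, against 14.6%. A CCAAT box then occurred in 29 (against 33.0%), both in 18, or 46.2% (against 5.24%), and an E2F site in 3 (against 3.71%). These shares describe letters in a window, and the promoters were not matched on base composition. For 5 members with a role in the results, a stretch of 150 bases that overlaps no annotated exon is printed on the gene's strand, in lower case with each CHR and CCAAT box (or its reverse complement, TTCAAA and ATTGG) in capitals. CDC20 (chr1:43358805-43358954, plus strand) has 1 CHR and 2 CCAAT boxes in it. TOP2A (chr17:40417951-40418100, minus strand) has 2 of each, and KIF11 (chr10:92592980-92593129, plus strand) has 1 of each. The stretches of AURKB (chr17:8210255-8210404, minus strand) and CDK1 (chr10:60778181-60778330, plus strand) have 1 CCAAT box and no CHR. The AURKB stretch lies ahead of the RefSeq start but between 2 exons of the longer GENCODE gene, which starts further upstream. A CHR of CDK1 begins 161 bases before the start, just outside its stretch.
CDC20: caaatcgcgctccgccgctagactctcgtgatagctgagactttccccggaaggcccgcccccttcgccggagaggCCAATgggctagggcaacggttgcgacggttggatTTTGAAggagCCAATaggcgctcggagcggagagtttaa
TOP2A: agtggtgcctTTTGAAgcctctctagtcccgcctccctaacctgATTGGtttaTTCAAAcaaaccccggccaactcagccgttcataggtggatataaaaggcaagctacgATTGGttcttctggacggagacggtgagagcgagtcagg
KIF11: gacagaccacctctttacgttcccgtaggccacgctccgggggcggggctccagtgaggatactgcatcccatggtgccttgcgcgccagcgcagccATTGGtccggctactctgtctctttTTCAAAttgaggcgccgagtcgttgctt
AURKB: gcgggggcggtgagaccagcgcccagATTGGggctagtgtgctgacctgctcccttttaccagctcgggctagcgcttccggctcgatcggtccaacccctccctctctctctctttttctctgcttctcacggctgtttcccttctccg
CDK1: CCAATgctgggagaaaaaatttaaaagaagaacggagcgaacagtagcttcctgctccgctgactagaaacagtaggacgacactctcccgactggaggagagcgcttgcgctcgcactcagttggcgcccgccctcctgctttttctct

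Mitotic entry is driven by CDK1 with its cyclins. All 7 members of this group fell at the high dose of Coptidis, with a median of -2.43, and all 7 by at least 2-fold. CDK1, the kinase itself (chromosome 10, 60778331 to 60794852), was at 88.8, 90.9 and 92.2 CPM in the vehicle libraries. It was at 66.8 and 71.4 CPM in the low, 32.3 and 41.5 in the medium and 16.2 and 16 in the high dose of Coptidis, a fall of 5.62-fold (log2 fold change -2.49, SE 0.096). Each dose lay below the one before it with no overlap of libraries. CCNA2, cyclin A2, changed most in the group: its levels were 179, 179 and 170 CPM in vehicle, 130 and 128 at the low, 57.4 and 64.3 at the medium and 21.2 and 22.4 at the high dose. Its fall at the high dose was 8.05-fold (-3.01, SE 0.059). CCNB1, cyclin B1, the partner of CDK1 at mitotic entry, went from 167, 174 and 163 CPM in vehicle to 39.7 and 43.9 CPM at the high dose (-2.0, SE 0.062).

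PLK1, the polo-like kinase that promotes entry and later steps, and FOXM1, a transcription factor of late cell cycle genes, were not called at the low dose. PLK1 was at 251, 244 and 262 CPM in vehicle and at 242 and 273 CPM at the low dose of Coptidis, so that the groups overlapped (log2 fold change 0.03). It fell to 130 and 99.5 CPM at the medium and to 55.4 and 57.2 CPM at the high dose (-2.16, SE 0.069). FOXM1 was at 131, 127 and 131 CPM in vehicle and at 133 and 137 CPM at the low dose (0.06, not called). At the high dose it was at 36.0 and 33.9 CPM, the smallest fall of the group (-1.89, SE 0.074).

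The Aurora kinases and the chromosomal passenger complex correct the attachment of chromosomes and guide cytokinesis. All 6 members fell at the high dose of Coptidis (median -2.52), and all 6 by at least 2-fold. AURKB, the kinase subunit of the complex (chromosome 17, 8204733 to 8210600), had the largest fall of all 46 genes. Its levels were 62.3, 65.5 and 62.5 CPM in vehicle, 44.4 and 52.5 at the low, 20.0 and 18.6 at the medium and 5.98 and 5.37 at the high dose. That was a fall of 11.2-fold (-3.48, SE 0.101, edgeR adjusted p = 4.9e-31). NEK2, a centrosomal kinase, had the smallest fall of this group (-1.58, SE 0.085), from 27.7, 26.3 and 27.7 CPM in vehicle to 8.63 and 9.55 CPM.

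Centromere and kinetochore proteins connect chromosomes to the spindle, and all 6 members fell at the high dose (median -2.45), each by at least 2-fold. SPC25, a subunit of the NDC80 complex that binds microtubules, was at 23.2, 24.0 and 23.7 CPM in vehicle. It was at 14.5 and 13.5 CPM already at the low dose, the largest fall among the members there (-0.75), at 5.23 and 8.85 at the medium and at 2.08 and 2.30 CPM at the high dose, 10.8-fold lower than vehicle (-3.43, SE 0.15). CENPA, the histone H3 variant that marks centromeres, was at 22.2, 22.8 and 22.2 CPM in vehicle, at 19.6 and 19.9 at the low dose and at 2.50 and 3.93 CPM at the high dose (-2.79, SE 0.111). CENPE, a kinesin of the kinetochore, had the smallest fall of the group (-2.0, SE 0.119).

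The spindle checkpoint holds anaphase until every chromosome is attached. All 5 members fell at the high dose of Coptidis (median -2.17), but only 4 by at least 2-fold. TTK, the kinase at the top of the checkpoint, fell most (-2.47, SE 0.084). BUB1, a checkpoint kinase, was at 105, 104 and 104 CPM in vehicle, at 97.6 and 99.6 at the low dose (not called), at 56.0 and 54.6 at the medium and at 25.2 and 25.8 CPM at the high dose (-2.03, SE 0.065). BUB3, which brings BUB1 to kinetochores, had the smallest fall of all 46 genes. It was at 138, 140 and 137 CPM in vehicle, 122 and 119 at the low, 102 and 117 at the medium and 110 and 114 CPM at the high dose (-0.31, SE 0.048, edgeR adjusted p = 3.5e-07). The BUB3 libraries of the 3 Coptidis doses lay below those of vehicle, but those of the medium and high dose overlapped.

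All 8 mitotic kinesins, motors that move along or take apart microtubules, fell at the high dose (median -2.43), each by at least 2-fold, and all 8 were called lower at the low dose too. KIF20A, a motor of the central spindle, was at 77.5, 79.7 and 78.9 CPM in vehicle, 57.6 and 57.6 at the low, 22.2 and 22.4 at the medium and 6.97 and 7.15 CPM at the high dose, 11.1-fold lower than vehicle (-3.47, SE 0.100). It had the largest fall of all members at the medium dose (-1.81). KIF11, the motor that pushes spindle poles apart, was at 100, 99.2 and 95.8 CPM in vehicle and at 11.8 and 14.1 CPM at the high dose (-2.92, SE 0.086). KIF14 had the smallest fall among the kinesins (-1.56, SE 0.131).

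Of the spindle microtubule proteins all 4 fell at the high and at the low dose. DLGAP5, which stabilises kinetochore fibres, fell most at the high dose (-2.83, SE 0.083) and TPX2, which activates AURKA at the spindle, fell least (-1.96, SE 0.045). The 4 members for chromosome structure likewise fell at both doses, from NCAPG of the condensin complex (-2.79, SE 0.069) to the condensin ATPase SMC4 (-1.87, SE 0.055) at the high dose. TOP2A, the topoisomerase that untangles sister chromatids, was at 702, 692 and 679 CPM in vehicle and at 545 and 508 CPM at the low dose. It was at 238 and 249 CPM at the medium and at 106 and 101 CPM at the high dose (-2.73, SE 0.061), with each dose below the one before it.

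The anaphase group acts when sister chromatids part. All 4 members fell at the high dose (median -2.06), and 3 of them by at least 2-fold. UBE2C alone of the 4 was called at the low dose. UBE2C, the ubiquitin-conjugating enzyme that works with the anaphase-promoting complex, was at 53.4, 53.9 and 53.9 CPM in vehicle and at 9.57 and 10.2 CPM at the high dose (-2.44, SE 0.118). CDC20, the activator of that complex, was at 108, 106 and 107 CPM in vehicle, 97.9 and 112 at the low, 55.6 and 51.2 at the medium and 27.8 and 28.7 CPM at the high dose (-1.92, SE 0.063). PTTG1, securin, which holds separase in check, was at 56.4, 59.2 and 51.7 CPM in vehicle, 45.0 and 51.5 at the low, 30.9 and 36.2 at the medium and 35.6 and 35 CPM at the high dose (-0.66, SE 0.122). Its low dose libraries lay under those of vehicle without a call, and its medium and high doses overlapped. PTTG1 and KIF4A have near-identical copies elsewhere in the genome, between which RSEM divides reads, so their values are less certain. Both cytokinesis members fell: ANLN, the contractile ring protein anillin, by 2.30 (SE 0.089) and ECT2, an activator of the small GTPase RhoA at the division plane, by 0.96 (SE 0.052) on the log2 scale.

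**Figure D2:**
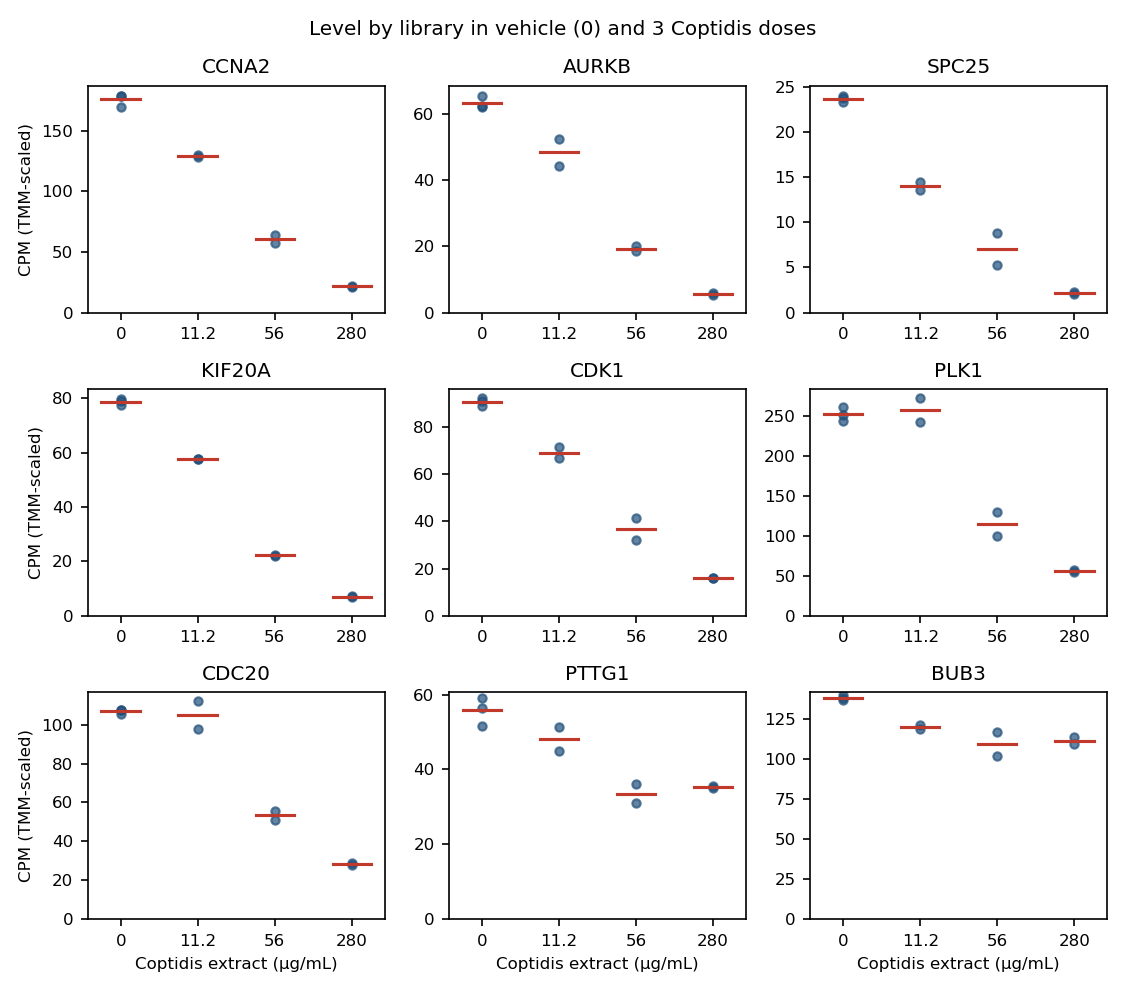
TMM-scaled CPM (y axis, from 0) of 9 mitosis genes in vehicle (0) and at 11.2, 56 and 280 µg/mL of Coptidis (x axis). Each point is 1 library and a short bar marks the mean of each group. AURKB and KIF20A go down from dose to dose, while BUB3 and PTTG1 show no further step from 56 to 280 µg/mL.

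Within the Coptidis doses, which share a title set, the same genes could be compared without vehicle. From low to high dose 45 of 46 members fell, with a median of -2.0 and a background of 29.3%, and BUB3 did not pass the test. From medium to high dose 44 fell (median -1.16, background 23.4%), and BUB3 and PTTG1 did not. PTTG1 was 0.07 higher at the high than at the medium dose on the log2 scale. From low to medium dose 45 fell (median -0.90, background 14.2%), BUB3 again being the exception. For 44 of 46 members the libraries lay in the order high, medium, low without overlap, against 16.2% of all tested genes, and the 2 exceptions were BUB3 and PTTG1. With vehicle above the low dose as well, 39 of 46 were in order, against 7.24%, and the exceptions were PLK1, FOXM1, INCENP, BUB3, CDC20, PTTG1 and ESPL1.

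The 10 members not called at the low dose of Coptidis were BUB1, CDC20, CENPA, CENPF, ESPL1, FOXM1, INCENP, NEK2, PLK1 and PTTG1. By group, 5 of 7 entry genes, 4 of 6 Aurora and passenger genes, 4 of 6 centromere and kinetochore genes, 4 of 5 checkpoint genes and 1 of 4 anaphase genes were called, beside all 18 genes of the kinesin, spindle, chromosome structure and cytokinesis groups. Differences between the groups were not tested.

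Zizyphi Fructus, which shares the title set of Coptidis, gave 0 calls among the members at each dose against vehicle in edgeR. The background at the high, medium and low dose was 2.07%, 1.19% and 1.73% higher and 1.57%, 0.732% and 1.07% lower. At an unadjusted p under 0.05, 1 member was higher and 3 were lower at the high dose, and 3 were higher and 1 lower at both the medium and the low dose. DESeq2 called CENPA higher at the high dose, no member at the medium dose and CDC20 higher at the low dose. Without replicate 3 of the Bupleuri low dose, which enters the shared estimate of the spread, 2, 2 and 3 members were called higher. Between the low and the high dose of Zizyphi edgeR called 0 members (background 0% higher and 0.006% lower), as did DESeq2, and 0 had an unadjusted p under 0.05. Compared directly with Zizyphi at the like-named dose, Coptidis was lower for 46 members at the high dose (median -2.23, background 31.4%), for 46 at the medium dose (-1.15, background 21.4%) and for 32 at the low dose (-0.26, background 7.27%). The concentrations of the 2 extracts differed, 280 against 500 µg/mL at the high dose.

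Bupleuri Radix was given at the same concentrations as Coptidis, and its high dose, too, was set by growth inhibition. At 280 µg/mL 43 of 46 members fell against vehicle, with a median of -0.56 and a background of 19.1%, and none of them by 2-fold. The exceptions were BUB3 (-0.06), CENPA (-0.17) and INCENP (-0.20). KIF20A fell most (-0.95, SE 0.067): it was at 77.5, 79.7 and 78.9 CPM in vehicle and at 38.3, 41.2 and 43.1 CPM at the high dose. KIF18A, a motor that limits chromosome movement (-0.80, SE 0.064), and KIF11 (-0.79, SE 0.062) came next. CDK1 was at 61.0, 58.6 and 56.7 CPM (-0.63, SE 0.071) and AURKB at 41.4, 41.9 and 47.6 CPM (-0.54, SE 0.066), both below every vehicle library. All 46 members had every high dose library below every vehicle library, against a background of 26.7%.

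At the medium dose of Bupleuri CDC20, CENPA, ESPL1 and INCENP rose and 0 members fell (background 5.44% higher and 5.49% lower). The count of 4 became 2 without vehicle replicate 1, vehicle replicate 2 or Bupleuri medium replicate 1, and 8 without replicate 3 of the low dose. At the low dose CDC20 and CENPA rose and DLGAP5, ECT2, KIF11, KIF15 and TOP2A fell (background 11.8% higher and 10.5% lower). Of these 7 calls only that of CENPA was still made without replicate 3, the library that stood apart, and ESPL1 and INCENP then rose too while 0 members fell. The CENPA call was lost in a separate fit of only the Bupleuri low dose and vehicle. Without the low dose replicates 1 and 2 in turn 26 and 21 were called, and without vehicle replicates 1 and 3 in turn 2 and 4.

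From low to high dose of Bupleuri 44 of 46 members fell (median -0.56, background 20%), all but BUB3 and KIF14. Without replicate 3 of the low dose 45 fell, with the same median of -0.56, and KIF14 was then called (-0.46). UBE2C fell most with all libraries (-0.93, SE 0.086). It was at 52.2, 55.0 and 76.4 CPM in the low and at 31.9, 33.0 and 31.1 CPM in the high dose, with replicate 3 the highest. Without that library its change was -0.75 (SE 0.071). KIF20A was at 82.4, 76.8 and 56.5 CPM in the low dose, with replicate 3 the lowest, and its change was -0.82 (SE 0.067) with all libraries and -0.97 (SE 0.047) without it. BIRC5, survivin, a subunit of the passenger complex, fell by 0.82 (SE 0.060) and, without the library, by 0.66 (SE 0.042).

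At the shared concentration of 280 µg/mL, 45 of 46 members were lower with Coptidis than with Bupleuri (median -1.69, background 30.5%), 42 of them by at least 2-fold (background 9.66%). The differences were largest for AURKB (-2.94, SE 0.102), SPC25 (-2.93, SE 0.154) and CENPA (-2.63, SE 0.112). PTTG1 was not called (-0.12, SE 0.122, approximate 95% interval -0.36 to 0.12, edgeR adjusted p = 0.41), with 35.6 and 35 CPM in Coptidis and 37.7, 38.8 and 39.0 CPM in Bupleuri. The 2 extracts belong to different title sets, which cannot be told apart from the extract here.

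The test of the difference between the 2 dose changes is free of a common shift between sets. Of the 46 members 44 fell more from low to high dose with Coptidis than with Bupleuri (median difference -1.46, background 22.3%), and the count was 44 without replicate 3 of the Bupleuri low dose as well. AURKB (-2.38, SE 0.127), KIF20A (-2.21) and SPC25 (-2.11) differed most with all libraries. Without replicate 3 AURKB (-2.53, SE 0.105), SPC25 (-2.28) and CENPA (-2.08) differed most, and KIF20A was at -2.07. BUB3 and PTTG1 did not pass the test, and PTTG1 was at 0.35 (SE 0.168) with all libraries and at 0.05 (SE 0.106) without replicate 3.

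**Figure D3:**
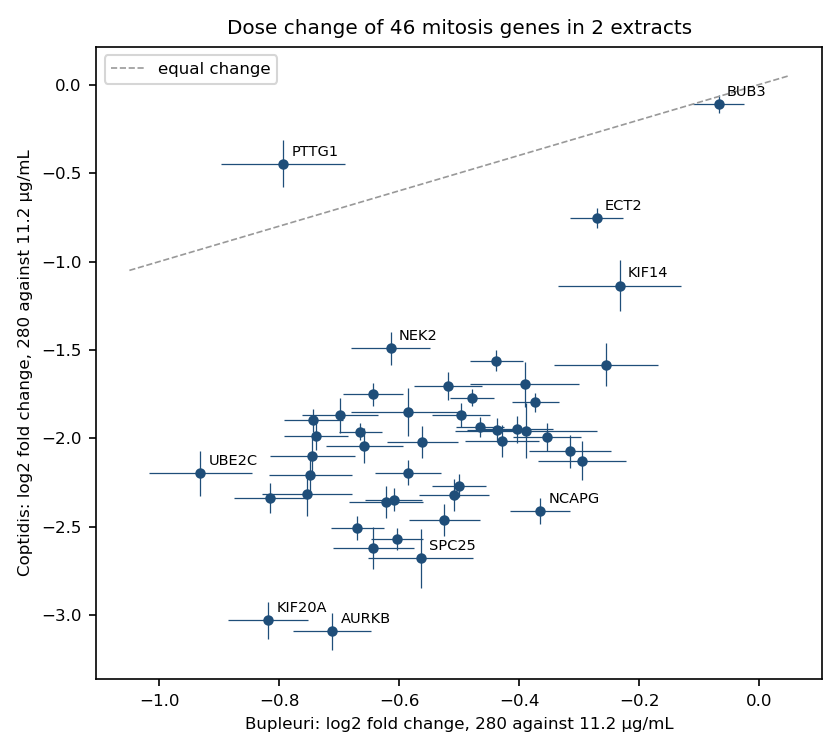
Log2 fold change from 11.2 to 280 µg/mL of the 46 members in Bupleuri (x axis) and in Coptidis (y axis), with bars of 1 SE and a dashed line of equal change. All but a few genes lie far below the line, such as AURKB, whose changes differ by 2.38, while BUB3 and PTTG1 lie close to it.

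With Aconiti Lateralis Radix Preparata at 500 µg/mL 40 of 46 members fell against vehicle (median -0.33, background 12%). UBE2C fell most (-0.64, SE 0.086), from 53.4, 53.9 and 53.9 CPM in vehicle to 36.1, 33.5 and 33.6 CPM. TOP2A (-0.54, SE 0.048) and CDC25C, the phosphatase that activates CDK1 (-0.49, SE 0.076), followed. The 6 members not called were CENPA, ESPL1, FOXM1, INCENP, MAD2L1 and NEK2. From low to high dose, within the set of Aconiti, 40 members fell as well (median -0.34, background 7.83%), and 43 of 46 had every high dose library below every low dose library, against 18.8%. UBE2C (-0.66), PLK1 (-0.53) and CDC25C (-0.50) changed most there. PLK1 was at 277, 279 and 272 CPM at the low and at 192, 195 and 184 CPM at the high dose.

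At the medium dose of Aconiti BUB1, CDC20, CENPA, INCENP and PLK1 rose and CDC25C and TOP2A fell (background 10.6% higher and 10.3% lower). These 7 calls became 3, 3, 4, 2 and 3 without vehicle replicates 1, 2 and 3 and Aconiti medium replicates 1 and 2 in turn, and 12 without the Bupleuri library that stood apart. CENPA alone rose at the low dose (background 5.51% higher and 4.38% lower), and 7 members were called without that library.

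With Cimicifugae Rhizoma at 500 µg/mL 18 of 46 members fell against vehicle and CENPA rose (median -0.12, background 10% lower and 12.1% higher). CCNB2, cyclin B2, fell most (-0.30, SE 0.052), from 78.4, 69.2 and 69.2 CPM in vehicle to 60.8, 56.6 and 59.1 CPM. UBE2C (-0.26) and TTK (-0.25) followed. The UBE2C call was lost without vehicle replicate 2 and without replicate 2 or 3 of the Cimicifugae high dose (edgeR adjusted p up to 0.097). Between the low and the high dose 13 members fell (background 2.73%), by at most 0.28 for CENPE. That count moved with single libraries. Without replicates 1, 2 and 3 of the high dose it was 8, 6 and 8, without replicates 1 and 2 of the low dose 6 and 7, and 29 without replicate 3 of the Bupleuri low dose. For 35 of 46 members every high dose library lay below every low dose library, against a background of 13.7%. At the medium dose CENPA, ESPL1 and INCENP rose (background 5.57% higher and 5.12% lower), and this count was 1 without vehicle replicate 1 or Cimicifugae medium replicate 1 or 2, and 5 without the Bupleuri library. CENPA rose alone at the low dose (background 2.95% higher and 3.15% lower), with 2 calls without vehicle replicate 3 and 4 without the Bupleuri library.

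With the formula Yijung-tang at 500 µg/mL CCNB2, ECT2, TOP2A and TPX2 fell and CDC20 and CENPA rose (background 7.84% lower and 9.49% higher). These 6 calls became 2 without vehicle replicate 1, 1 without the high dose replicate 2 and 15 without the Bupleuri library. CDC20 and CENPA rose at the medium dose (background 3.6% higher and 2.65% lower), a count of 2 that was 1 without medium dose replicate 1 and 9 without the Bupleuri library. CENPA rose at the low dose (background 1.2% higher and 0.486% lower), where 0 members were called without low dose replicate 1 and 2 without the Bupleuri library. TPX2 alone fell from low to high dose (-0.17, edgeR adjusted p = 0.0093, background 3.31%), and 0 members were called without low dose replicate 1 or 2 or high dose replicate 2, and 7 without the Bupleuri library.

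With Citri Unshius Pericarpium CDC20, CENPA, INCENP and PLK1 rose at the high dose (background 7.73% higher and 6.51% lower), and CENPA, INCENP and KIF2C, a kinesin that takes microtubules apart, at the medium dose (background 5.54% higher and 4.97% lower). At the low dose CDC20, CENPA, ESPL1 and INCENP rose and HMMR, NUF2 and TTK fell (background 8.38% higher and 7.56% lower). Between the low and the high dose edgeR called 0 members (background 0.252% higher and 0.528% lower), with 5 higher and 0 lower at an unadjusted p under 0.05 and 0 called by DESeq2. The 4 calls at the high dose were 2, 1 and 2 without vehicle replicate 1 and Citri high replicates 1 and 3 in turn. The 3 at the medium dose were 1 without vehicle replicate 1, Citri medium replicate 1 or Citri medium replicate 3. The 7 at the low dose were 2 without vehicle replicate 1 or Citri low replicate 1, and 4 without vehicle replicate 2 or Citri low replicate 3. Without the Bupleuri library they were 7, 7 and 11.

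**Figure D4:**
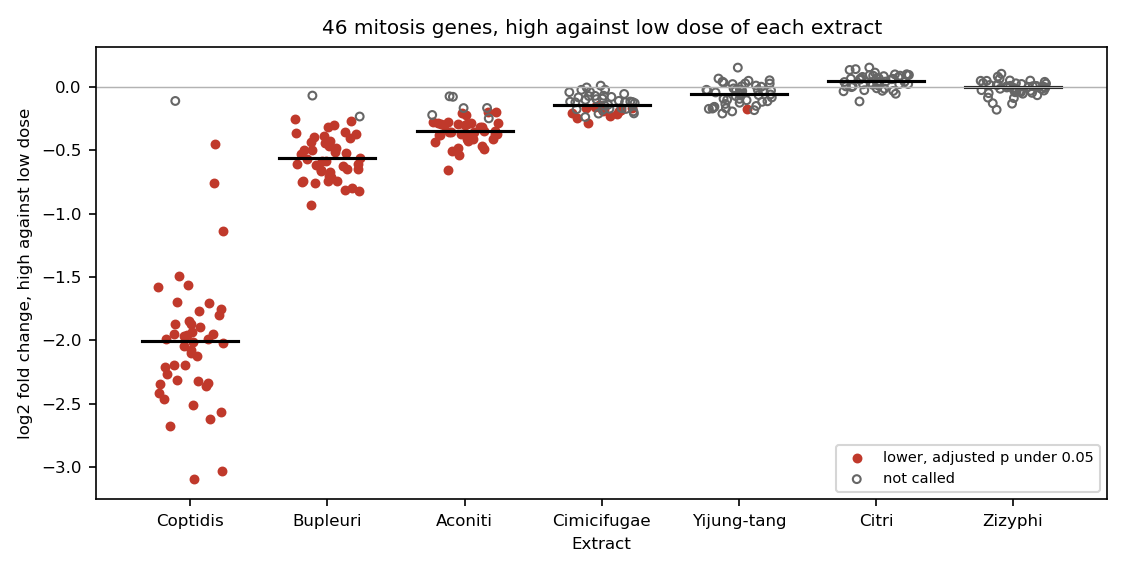
Log2 fold change from the low to the high dose (y axis) of the 46 members in 7 extracts (x axis), with filled points for genes called lower, open points for genes not called and a bar at the median. Medians run from -2.0 in Coptidis over -0.56 in Bupleuri and -0.34 in Aconiti to 0.05 in Citri.

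CENPA recurs among these calls, and its values against vehicle all rest on the same 3 vehicle libraries at 22.2, 22.8 and 22.2 CPM. At the high, medium and low dose its log2 fold change was 0.34, 0.42 and 0.39 with Citri, 0.19, 0.42 and 0.36 with Cimicifugae and 0.34, 0.50 and 0.40 with Yijung-tang, each called. The call at the high dose of Cimicifugae was lost under 6 settings, namely without the filter, without each vehicle replicate in turn and without replicate 1 or 2 of that dose (edgeR adjusted p up to 0.13). The call at the low dose of Yijung-tang was lost without its replicate 1. With Bupleuri it was -0.17, 0.50 and 0.48 and with Aconiti -0.03, 0.41 and 0.45, where the high dose was not called. With Zizyphi it was 0.23, 0.21 and 0.22, none of them called by edgeR, while DESeq2 called the high dose. Over the 48 libraries of the 6 replicated extracts other than Coptidis, CENPA ran from 19.4 to 35.6 CPM with a median of 28.8 CPM, and the 3 vehicle libraries lay between its lowest and its median. In these comparisons, set and treatment cannot be told apart. Within sets, CENPA fell from low to high dose with Bupleuri (-0.64) and Aconiti (-0.49).

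Over the same 48 libraries AURKB ran from 41.4 to 85.5 CPM (median 64.6), KIF20A from 38.3 to 89.9 (median 79.0), SPC25 from 16.1 to 30.1 (median 22.9) and CCNA2 from 114 to 190 CPM (median 176). The highest Coptidis high dose libraries, at 5.98, 7.15, 2.30 and 22.4 CPM, lay below all of these. These genes had the largest falls of their role groups at that dose, so their order here follows in part from that choice. How many of all members or of all tested genes lay so was not counted. BUB3 ran from 123 to 153 CPM (median 133), above its Coptidis levels at the high dose, and PTTG1 from 37.7 to 91.3 CPM (median 55.3).

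The members' fall from low to high dose was also tested between Coptidis and each other replicated extract, every change being taken within its title set. It was larger with Coptidis for 44 members against Zizyphi (median difference -2.02, background 24.5%), 46 against Citri (-2.07, background 25.7%), 44 against Cimicifugae (-1.89, background 25.9%), 44 against Aconiti (-1.67, background 25.2%) and 44 against Yijung-tang (-1.98, background 24.7%). BUB3 and PTTG1 were the members not called, except against Citri, where both passed. These tests share the Coptidis libraries.

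Banhasasim-tang had 1 library per dose and so no test. Ratios to the vehicle mean are given on the log2 scale with a prior count of 2. At the high dose all 46 members were below 0, from -0.85 for KIF20A to -0.01 for NEK2. Their median was -0.36, against 0.008 over all genes, and 0 lay below -1, against 1.91% of all genes. At the medium dose the median was -0.02, against -0.0006 over all genes. There 25 members were below 0 and 0 below -1 (1.59% of all genes). The share of all genes below 0 was not counted. At the low dose the ratios ran from -1.66 for TTK to 1.63 for INCENP. Their median was -0.59, against -0.04 over all genes, and 9 of 46 lay below -1, against 18% of all genes. That low dose library had the smallest total of all, and its mitochondrial ribosomal RNA was 0.485% of counts, against 8.01 and 11.8% in the medium and high dose libraries.

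Other lists of cell cycle genes were read beside the members at the high dose of Coptidis. Of 50 further mitosis genes 49 fell (median -2.05), led by CENPI of the inner kinetochore (-3.61), and CDC25B, a phosphatase of CDK1, was not called (0.03). All 25 genes of DNA replication fell (median -1.91), GINS2 of the replicative helicase most (-2.97). Lists of the general chromosome machinery held genes called in both directions, against a background of 33% lower and 34.5% higher. Of 15 subunits of the anaphase-promoting complex 10 fell and 2 rose (median -0.31), from ANAPC15 at -1.10 to the activator FZR1 at 0.52. Of 9 cohesin genes 5 fell and 3 rose (median -0.29), from PDS5B at -0.62 to STAG2 at 0.37. Of 10 tubulins 5 fell and 5 rose (median 0.09), from TUBA1B at -1.62 to TUBB2B at 1.96.

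The next counts, too, are for the high dose of Coptidis, with the same background of 33% lower and 34.5% higher. Among 15 subunits of DREAM, MuvB and NF-Y, the complexes that bind the promoter elements above, 11 fell and 3 rose (median -0.94). They ran from MYBL2 at -1.97 to LIN37 at 0.40. Of 13 tested genes among G1 cyclins, CDKs and CDK inhibitors 7 fell and 3 rose (median -0.61), from CDKN2C at -3.15 to CDKN1A at 3.00. CDKN1A, the CDK inhibitor p21, was at 96.5, 95.1 and 93.1 CPM in vehicle, 103 and 113 at the low, 215 and 204 at the medium and 758 and 758 CPM at the high dose of Coptidis. Its groups did not overlap and were higher at each higher dose, opposite in direction to the members. Of the 8 hepatocyte markers 7 fell and 1 rose (median -0.68), and their sum was 25245 to 26107 CPM at the high dose against 41145 to 41733 in vehicle. Of 11 markers of other cell types 5 were tested, of which 2 rose and 1 fell, and the 11 summed to 143 to 145 CPM against 82.2 to 88.5 in vehicle. The part of either in the members' fall was not tested.

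**Figure D5:**
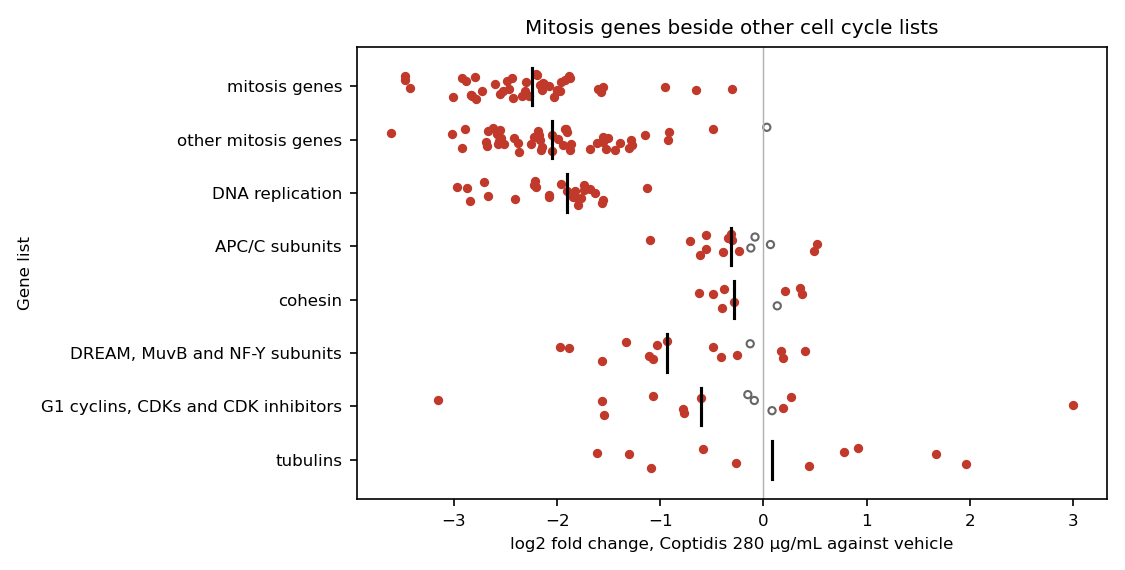
Log2 fold change at 280 µg/mL of Coptidis against vehicle (x axis) of each gene in the mitosis set and in other gene lists (rows), filled where called and open where not, with a bar at each list's median. The mitosis genes (median -2.24), the further mitosis genes (-2.05) and the DNA replication genes (-1.91) lie to the left, while the tubulins lie on both sides of 0.

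The lists moved less at the high dose of Bupleuri, where 44 of the 50 further mitosis genes (median -0.45) and 23 of the 25 replication genes (median -0.43) fell against vehicle, beside 19.1% of all tested genes. From low to high dose of Aconiti 35 of the 50 (median -0.29) and 14 of the 25 (median -0.17) fell, beside 7.83%. The share of all counts taken by the 46 members was 0.478 to 0.487% in vehicle. It was 0.366 to 0.371%, 0.199 to 0.202% and 0.101 to 0.103% at the low, medium and high dose of Coptidis, 0.320 to 0.323% at the high dose of Bupleuri, 0.374 to 0.401% at that of Aconiti and 0.436 to 0.450% at that of Cimicifugae.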

How the data were processed

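Per the labels' protocols, directional libraries of HepG2 RNA were read from both ends on an MGI sequencer. The deposited table holds expected counts that the authors estimated per gene, without normalization. Per the submitters' processing notes the genome was GRCh38 and the tools were RSEM 1.3.3, STAR 2.7.3a, Trim Galore 0.6.5 and FastQC 0.11.9. No source used here gives the release of the annotation. Of 267 columns 207 were left out, as they match no sample used here. Of the values 8.75% were not whole, so that values were rounded before testing. A gene name table matched 56558 of 60675 IDs, and positions came from GENCODE 29 on GRCh38. Replicate libraries all differed beyond the noise of sampling, and each was counted once. By the labels, the authors did not keep some samples that gave little RNA.

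The 22 groups that have replicates, with 57 libraries, entered a single fit in edgeR 4.0.16 under R 4.3.3 (glmQLFit with robust estimation, glmQLFTest, TMM scaling, 1 coefficient per group). The fit had 35 residual degrees of freedom and a common biological variation of 6.14%. Filtering by expression within groups left 16675 genes and removed 44000, and p-values were adjusted within each of 40 comparisons. The SE is approximate, computed as the size of the log2 fold change over the square root of F, and the interval as the normal 95% interval from it. Library totals set the precision of genes with low counts. The scripts were tested on simulated data. The members and lists were chosen with earlier results of these data known. Genes named are a fixed panel (CDK1, CCNB1, PLK1, AURKB, BUB1, BUB3, KIF11, KIF20A, CENPA, TOP2A, CDC20 and FOXM1), the largest and smallest fall of each role group at the high dose of Coptidis, up to 3 called members with the largest rise and up to 3 with the largest fall in each other comparison, and called genes with the largest changes in the other lists. Exceptions to a count are named in some places and not in others, and other genes or values given outside this rule were chosen after they were seen.

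Alternatives were DESeq2 1.42.0, RLE scaling, no filter, blocking on the replicate number and separate fits of only the groups in each comparison. Further ones were offsets for GC content and length from a spline (4 degrees of freedom, 99.3% of tested genes), and leaving out each library in turn. Pairing of same-numbered libraries was checked from the correlation, over genes, of their deviations from the group means. Of comparisons with 3 pairs, only Bupleuri high against low had each above 0.1 (0.116 to 0.289), a hint from the data and not from the labels. The group mean of that low dose includes replicate 3, which stood apart, so its 3 correlations are not separate from each other. They were not computed without that library. Where both groups had 2 libraries, both pairs gave the same value. High against low gave 0.515 for Zizyphi, 0.262 for Coptidis and 0.154 for Yijung-tang. Coptidis high gave 0.283 against its medium dose and 0.320 against Zizyphi high. Coptidis against Zizyphi gave 0.036 for their medium doses and 0.064 for their low doses. The values printed for all these comparisons come from the fit without pairing, and the blocked fit is an alternative. A fit with crossed numbers for the medium and low dose of Coptidis (correlation -0.190) was added after seeing the data.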

Additional observations from a re-analysis of the deposited data

Results flagged for a closer look

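The change from low to high dose differed between Coptidis and each of 6 other extracts by a test of the difference itself (edgeR, adjusted over all genes). The number of mitosis genes that fell more with Coptidis was 44 of 46 against Zizyphi (background 24.5%) and 46 against Citri (background 25.7%). It was 44 against each of Cimicifugae (background 25.9%), Bupleuri (22.3%), Aconiti (25.2%) and Yijung-tang (24.7%). BUB3, the checkpoint adaptor, and PTTG1, securin, did not pass the test against 5 of these extracts. These 6 tests share the Coptidis libraries, and a cause was not tested.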

How the results depend on the processing

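Of 40 counts of members called, RLE scaling left each within 1.5 times its value. With the replicate block 38 counts stayed so, including 44 for Bupleuri high against low, and those for Aconiti low and Yijung-tang medium became 2 and 4. Coptidis medium against low gave 46 with the replicate block and 45 with crossed numbers. DESeq2 called 1 member for Zizyphi high and low, 5 for Citri medium, 2 for Cimicifugae low, 13 for Bupleuri low, 3 for Aconiti low, 5 for Yijung-tang medium and 2 for Yijung-tang high against low. Offsets for GC content and length gave 1, 2 and 1 for Zizyphi high, medium and low, 10, 6 and 3 for Citri, 12, 10 and 5 for Cimicifugae, 13 for Bupleuri medium, 14 and 4 for Aconiti medium and low, 11, 12 and 2 for Yijung-tang, and 23 and 9 for Cimicifugae and Yijung-tang high against low. Without the filter there were 4 for Citri low, 12 and 3 for Cimicifugae high and low, 3 for Aconiti medium, 2 for Yijung-tang high, and 8 and 0 for Cimicifugae and Yijung-tang high against low. Separate fits gave 9, 4 and 2 for Zizyphi, 11, 8 and 14 for Citri, 10 and 6 for Cimicifugae medium and low, 9 and 0 for Bupleuri medium and low, 19 and 10 for Aconiti medium and low, 19, 13 and 6 for Yijung-tang, and 27 and 8 for Cimicifugae and Yijung-tang high against low. The cause was not tested. CDC20 at the low dose of Bupleuri turned to -0.0107 with the offsets for GC content and length. Counted once for each named gene, comparison and alternative fit, 1521 others kept direction and call and 126 lost their call. These are numbers of fits and not of genes, and a single result can lose its call in several. INCENP at the medium dose of Citri lost its call in 7 fits.

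When each library was left out in turn, the counts against vehicle stayed at 46 for Coptidis high and medium, at 30 to 39 for Coptidis low, 42 to 45 for Bupleuri high and 37 to 42 for Aconiti high. They ran from 0 to 2, 0 to 2 and 0 to 3 for Zizyphi high, medium and low, 1 to 7, 1 to 7 and 2 to 11 for Citri, 1 to 5 and 1 to 4 for Cimicifugae medium and low, 2 to 8 and 2 to 26 for Bupleuri medium and low, 2 to 12 and 1 to 7 for Aconiti medium and low, and 1 to 15, 1 to 9 and 0 to 2 for Yijung-tang. For Cimicifugae high against vehicle the count ran from 14 to 27. High against low ran from 6 to 29 for Cimicifugae and from 0 to 7 for Yijung-tang. Where a group is left with 1 library, that library is taken to vary like the other groups. The share of all tested genes called in these refits is not given. Genes at a few CPM in Coptidis, such as SPC25 and CENPA, rest on fewer counts. At the high dose the SE of SPC25 was larger than that of PTTG1, a gene at a higher level, and that of CENPA was smaller.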
